A study of Mus musculus with 4 samples.

Results

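The carbonic anhydrase genes Car2, Car3, Car4, Car7, Car8, Car9, Car11, Car12, Car13 and Car14 were compared between 2 pluripotent states of the mouse, epiblast-like stem cells (EpiLSC) and naive embryonic stem cells (nESC). These 10 genes of the 20296 in the authors' deposited table were taken by symbol. The family was chosen by the rise of several of its genes in this same comparison, that is, selected on the log2 fold changes and adjusted p-values of EpiLSC against nESC, with no cut-off on either. Their fold changes and adjusted p-values are therefore given as a description. RNA came from 4 samples, 2 EpiLSC and 2 nESC, and each state had 1 sample of the embryonic stem cell line R1 and 1 of E14TG2a. EpiLSC were derived from nESC by plating on gelatin in N2B27 medium with activin A and bFGF (20 and 12 ng/ml) and were collected on day 3. The nESC were grown in 2i/LIF, which pairs kinase inhibitors with the cytokine LIF. Both states thus share the lines and differ in medium as well as in state, which cannot be told apart.

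Carbonic anhydrases are zinc enzymes that turn carbon dioxide and water into bicarbonate and a proton, and back again. Cytosolic forms (Car2, Car3, Car7 and Car13) buffer the cell interior. Forms with an extracellular active site (Car4 on a lipid anchor, and the transmembrane Car9, Car12 and Car14) act on carbon dioxide and bicarbonate at the cell surface and work beside bicarbonate and proton transporters. Car8 and Car11 carry the fold of the family but lack catalytic activity. CAR9 is widely used as a marker of low oxygen, because the hypoxia-inducible factor (HIF) binds next to its start site.

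Of the 10 genes, Car4 and Car14 lay furthest apart between the states and Car9 hardly had reads, so the 250 bases before the annotated starts of the 4 genes with an extracellular active site are shown for comparison. The windows come from RefSeq on GRCm38.p6, read along the gene's strand, and 6 of the 10 genes had an entry. Capitals mark ACGTG or CACGT, the core that HIF binds, and GGATTA or TAATCC, the core of OTX-type homeodomain proteins.
Car4 (chr11:84957504-84957753, plus strand): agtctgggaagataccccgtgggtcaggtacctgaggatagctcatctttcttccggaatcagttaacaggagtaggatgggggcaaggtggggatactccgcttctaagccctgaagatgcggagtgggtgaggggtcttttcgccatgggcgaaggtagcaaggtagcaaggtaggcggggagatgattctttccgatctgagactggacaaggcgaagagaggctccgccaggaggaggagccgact
Car14 (chr3:95904686-95904935, minus strand): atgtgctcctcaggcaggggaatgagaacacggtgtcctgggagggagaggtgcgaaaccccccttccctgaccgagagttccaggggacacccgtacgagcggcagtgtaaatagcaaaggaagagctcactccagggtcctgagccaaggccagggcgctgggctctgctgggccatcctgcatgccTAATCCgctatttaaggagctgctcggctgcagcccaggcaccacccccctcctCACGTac
Car12 (chr9:66713436-66713685, plus strand): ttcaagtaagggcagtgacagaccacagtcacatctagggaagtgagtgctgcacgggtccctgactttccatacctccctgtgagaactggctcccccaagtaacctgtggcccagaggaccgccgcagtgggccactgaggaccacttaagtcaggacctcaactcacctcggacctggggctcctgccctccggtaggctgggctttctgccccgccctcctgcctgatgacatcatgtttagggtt
Car9 (chr4:43506776-43507025, plus strand): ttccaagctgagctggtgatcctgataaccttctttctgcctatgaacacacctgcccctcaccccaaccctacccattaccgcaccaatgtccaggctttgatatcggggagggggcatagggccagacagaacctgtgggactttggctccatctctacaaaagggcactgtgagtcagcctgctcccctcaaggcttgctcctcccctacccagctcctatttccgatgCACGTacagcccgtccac
The HIF core was found, read on the opposite strand, in Car9, 18 bases before the start, and in Car14, 7 bases before the start. It occurred on either strand in 16.6% of all 32851 RefSeq windows of this length. The OTX core was found in Car14, 61 bases before the start, against 6.25% of all windows. The windows of Car4 and Car12 held neither set of letters. TATAAA (12.4% of all windows) and AAGGTCA, the core bound by Esrrb (4.08%), were in none of the 4 windows on either strand. The Car4 and Car14 windows held 11 and 10 CG pairs and those of Car12 and Car9 6 and 5, where the median of all windows was 6.

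Reads per library were recovered from the authors' deposited means. Each mean is a sum of whole reads divided by 4 size factors, and for genes of up to 2000 normalized counts 1 combination of whole reads usually gives the printed digits. The size factors, which scale with depth, were 1.24 in EpiLSC library A, 0.735 in EpiLSC library B, 1.28 in nESC library A and 0.876 in nESC library B. The letters mark the library with the larger (A) and the smaller (B) size factor of a state, and no library was assigned to R1 or E14TG2a. The state of each library follows from the sign of the authors' fold changes: 215 and 215 genes with reads in EpiLSC library A or B alone were all positive, and 128 and 140 genes with reads in nESC library A or B alone were all negative. The positive sign was taken as EpiLSC from Fgf5, Otx2 and Dnmt3b (log2 fold changes of 8.40, 3.90 and 4.63 in the authors' deposited table) against Zfp42, Klf4 and Esrrb (-6.22, -6.29 and -8.54), since its header gives no direction. Of the markers, 10 of 10 formative genes rose and 10 of 10 naive genes fell, and the lists were used in part to set that sign. Of 6 core pluripotency markers 0 rose and 1 fell, Sox2 (-3.35, SE 0.64 in the authors' deposited table). Among all tested genes 7.67% were called higher and 6.23% lower. Libraries A and B of a state stood well apart: among 7915 tested genes with an EpiLSC level of 50 or more the median gap was 1.86-fold, and among 7634 such genes in nESC 1.53-fold. Gaps ran alike in both states (Pearson r = 0.84, Spearman rho = 0.82 across 7086 genes, which share their libraries and are not independent).

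Of the 10 genes, 5 were called higher in EpiLSC, 1 was called lower, 3 did not pass and 1 had no adjusted p (adjusted p under 0.05 in the authors' deposited table, from DESeq2's Wald test with the adjustment of Benjamini and Hochberg). Across all 16361 genes tested 7.67% were higher and 6.23% lower, and since the genes were picked for being higher nothing is read from the comparison. Both EpiLSC libraries lay above both nESC libraries in 6 genes and below them in 2, with overlap in Car9 and Car11. Such a separation upward was found in 27.2% of 12869 tested genes with recovered reads, and downward in 24.0%, 51.2% in all. In bulk RNA, fewer cells of a type and less RNA per cell cannot be told apart.

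**Figure D1:**
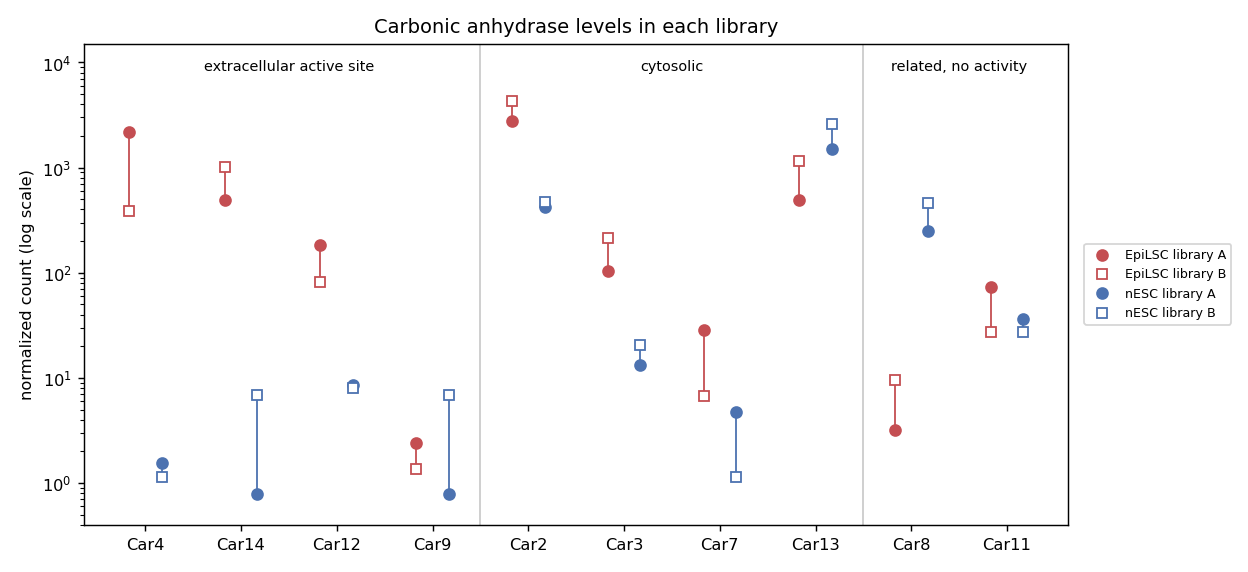
Normalized counts (log axis) of the 10 genes in EpiLSC (red) and nESC (blue); circles are library A, squares library B, and a line joins the libraries of a state. Car4 and Car14 lie at 384 to 2189 in EpiLSC and at 0.784 to 6.85 in nESC, while Car9 stays below 7 in every library.

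Car4, the lipid-anchored enzyme of the cell surface, had the highest ratio of the 10 genes. It had 2711 and 282 reads in EpiLSC libraries A and B, against 2 and 1 reads in nESC libraries A and B. As normalized counts these were 2189 and 384 in EpiLSC and 1.57 and 1.14 in nESC. The gene was thus at the edge of detection in both nESC libraries and well expressed in both EpiLSC libraries, which nevertheless differed 5.71-fold from each other. A gap of that size or more was found in 10.8% of genes with an EpiLSC level of 50 or more. Its log2 fold change in the authors' deposited table was 9.87 (SE 1.23, 95% interval 7.45 to 12.28, adjusted p 2.58e-13). From summed reads, 2993 against 3, the ratio was 1088 with an exact 95% interval of 372 to 5279 that covers counting error only. Without EpiLSC library A the log2 ratio was 8.15, and without EpiLSC library B it was 10.66.

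Car14, a transmembrane enzyme, had 611 and 752 reads in EpiLSC libraries A and B, against 1 and 6 reads in nESC libraries A and B. Normalized, it stood at 493 and 1023 in EpiLSC and at 0.784 and 6.85 in nESC. In contrast to Car4 it was higher in EpiLSC library B, by 2.07-fold. In the authors' deposited table it was higher by 7.73 on the log2 scale, with an SE of 0.98 and an adjusted p of 5.87e-13. From summed reads the ratio was 212 (exact 95% interval 103 to 529, counting error only). The log2 ratio was 6.79 without nESC library A and 9.92 without nESC library B, so its size rests on the 7 nESC reads.

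Car12, the other transmembrane enzyme that rose, had 183 and 81.6 normalized counts in EpiLSC libraries A and B, against 8.62 and 7.99 in nESC libraries A and B. Here the nESC libraries lay close together and both EpiLSC values were roughly an order of magnitude higher or more. The log2 fold change in the authors' deposited table was 3.99 (SE 0.90, adjusted p 0.000172). Without EpiLSC library A it was 3.30. Car9 had 3 and 1 reads in EpiLSC libraries A and B and 1 and 6 in nESC libraries A and B. At this depth no difference was detectable, and it was the only one of the 10 without an adjusted p in the authors' deposited table (log2 fold change -0.97, SE 2.42). Its sign turned with 1 library: the log2 ratio was 1.27 without nESC library B.

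Among the cytosolic enzymes, Car2, a fast and widely expressed form, had the highest level in EpiLSC. It had 2753 and 4345 normalized counts in EpiLSC libraries A and B, against 423 and 468 in nESC libraries A and B. The nESC libraries were nearly equal and neither came near an EpiLSC value. In the authors' deposited table Car2 was higher by 2.99 on the log2 scale, with an SE of 0.64 and an adjusted p of 7.39e-05. Car3, a slow enzyme best known from muscle, liver and fat, had 104 and 215 normalized counts in EpiLSC libraries A and B, against 13.3 and 20.5 in nESC libraries A and B. The log2 fold change of Car3 in the authors' deposited table was 3.24 (SE 0.83, adjusted p 0.00146). Car3 was no longer called when a null of a 2-fold change was used (its adjusted p was then 0.0913, with a range over its alternatives of 0.00146 to 0.0913), and without EpiLSC library B its log2 ratio was 2.62.

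Car13, a cytosolic form with broad tissue distribution, went the other way without passing the test. It had 497 and 1151 normalized counts in EpiLSC libraries A and B, against 1520 and 2629 in nESC libraries A and B. Both EpiLSC libraries were below both nESC libraries, with EpiLSC library B nearest to nESC library A. The log2 fold change in the authors' deposited table was -1.33 (SE 0.73, adjusted p 0.283), with a 95% interval from -2.76 to 0.09. Car7, known mainly from neurons, rested on 35 and 5 reads in EpiLSC libraries A and B, against 6 and 1 reads in nESC libraries A and B. Its log2 fold change of 2.56 (SE 1.57) in the authors' deposited table missed the threshold (adjusted p 0.383). In both states Car7 had about 4 times as many normalized counts in library A as in library B (4.16-fold in EpiLSC and 4.12-fold in nESC).

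Of the related proteins without activity, Car8 fell. Car8, which in the brain binds the inositol trisphosphate receptor, had 4 and 7 reads in EpiLSC libraries A and B, against 316 and 400 reads in nESC libraries A and B. Normalized, these were 3.23 and 9.52 in EpiLSC and 248 and 457 in nESC. The states did not come near each other, and the gene was the only one of the 10 that was called lower. Its log2 fold change in the authors' deposited table was -5.86 (SE 0.89, adjusted p 3.37e-09). Summed reads gave a level 59.7 times as high in nESC (exact 95% interval 33.2 to 120.1, counting error only). The log2 ratio was -5.21 without EpiLSC library A and -6.77 without EpiLSC library B. Car11 had 73.5 and 27.2 normalized counts in EpiLSC libraries A and B, against 36.1 and 27.4 in nESC libraries A and B. Its libraries overlapped, and its log2 fold change of 0.67 (SE 0.94) in the authors' deposited table missed the threshold (adjusted p 0.87). Its sign turned without EpiLSC library A, at a log2 ratio of -0.22.

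**Figure D2:**
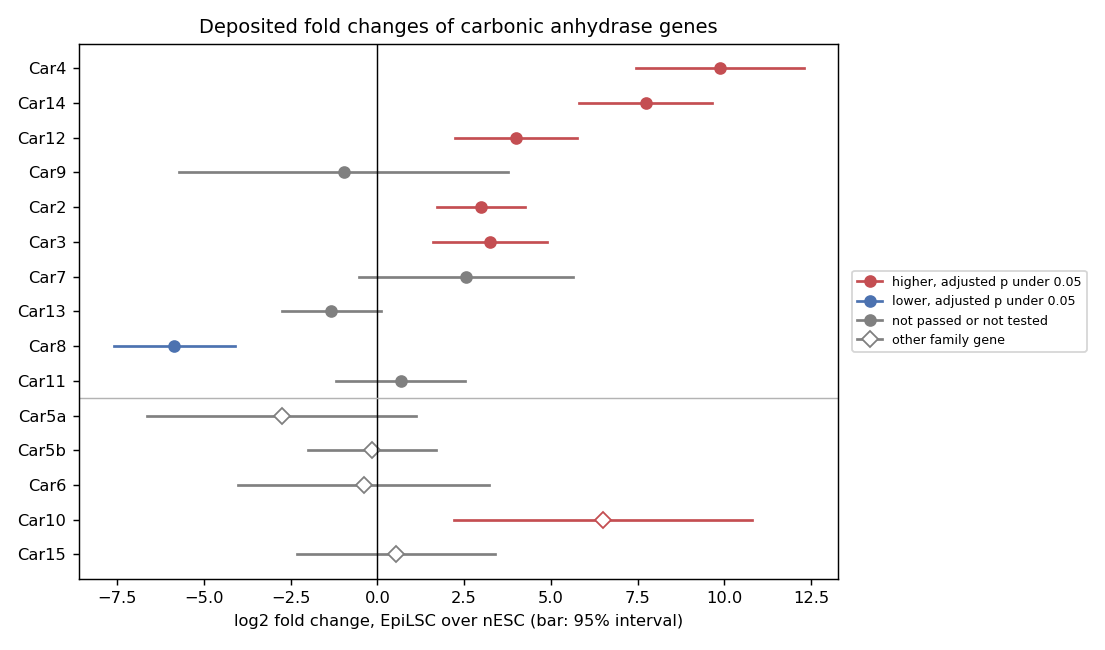
Log2 fold change of EpiLSC over nESC from the authors' deposited table with 95% normal intervals, for the 10 genes (circles) and 5 other family genes (diamonds). Car4, Car14, Car12, Car2, Car3 and the additional gene Car10 lie right of 0 and Car8 lies left of it with intervals clear of 0, while the interval of Car9 runs from -5.71 to 3.77.

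Other genes of the family were read at low levels. Car10, another related protein without activity, had 19 and 12 reads in EpiLSC libraries A and B and 0 reads in both nESC libraries. Its level was at least 11.3-fold higher in EpiLSC, taking 3 reads over both nESC libraries as the floor. It passed in the authors' deposited table (adjusted p 0.025), but not at an adjusted p under 0.01 or against a 2-fold change. The mitochondrial Car5b had 23.4 and 38.1 normalized counts in EpiLSC libraries A and B, against 28.2 and 39.9 in nESC libraries A and B. It did not pass (-0.15, SE 0.94 in the authors' deposited table). Mitochondrial Car5a, secreted Car6 and lipid-anchored Car15 had at most 24 reads in any library and did not pass either.

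To compare genes with one another, normalized counts were divided by the length of merged exons. In EpiLSC the order per kilobase was Car2 at 1465 ± 465, Car4 at 654 ± 649, Car13 at 358 ± 201 and Car14 at 298 ± 147 normalized counts per kb (SD, n = 2). Car4, Car13 and Car14 overlapped in that order, and in library A Car4 (1114 per kb) was almost level with Car2 (1137 per kb). Next came Car3 at 55.7 ± 27.3 per kb, Car11 at 26.1 ± 17.0 and Car12 at 17.4 ± 9.39 per kb, whose neighbours overlapped. Car7, Car8 and Car9 had means of 4.82 per kb or less in EpiLSC. In nESC the order began with Car13 at 902 ± 341 per kb, Car2 at 184 ± 13.1, Car8 at 91.4 ± 38.3, Car11 at 16.5 ± 3.18 and Car3 at 5.91 ± 1.78 per kb (SD, n = 2), with no overlap between neighbours among these 5. The other 5 genes overlapped at means of 1.66 per kb or less in nESC, with Car4 last at 0.689 ± 0.153 per kb.

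The make-up of the 8 catalytic members changed with these shifts. Car13 held 78.3% and 84.6% of their summed level per kb in nESC libraries A and B, but 7.91% and 16.8% in EpiLSC libraries A and B. Car2 held 41.6% and 60.2% in EpiLSC libraries A and B, against 20.7% and 14.3% in nESC libraries A and B. Car4 made up 40.8% in EpiLSC library A and 6.55% in EpiLSC library B, whereas Car14 made up 7.11% in A and 13.5% in B. The 4 genes with an extracellular active site together reached 1333 and 609 normalized counts per kb in EpiLSC libraries A and B, against 2.58 and 7.30 in nESC libraries A and B. The sum over all 8 was 2729 and 2980 per kb in EpiLSC libraries A and B, against 844 and 1351 per kb in nESC libraries A and B. The members were picked for their rises, so these sums are a description of the picked genes.

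**Figure D3:**
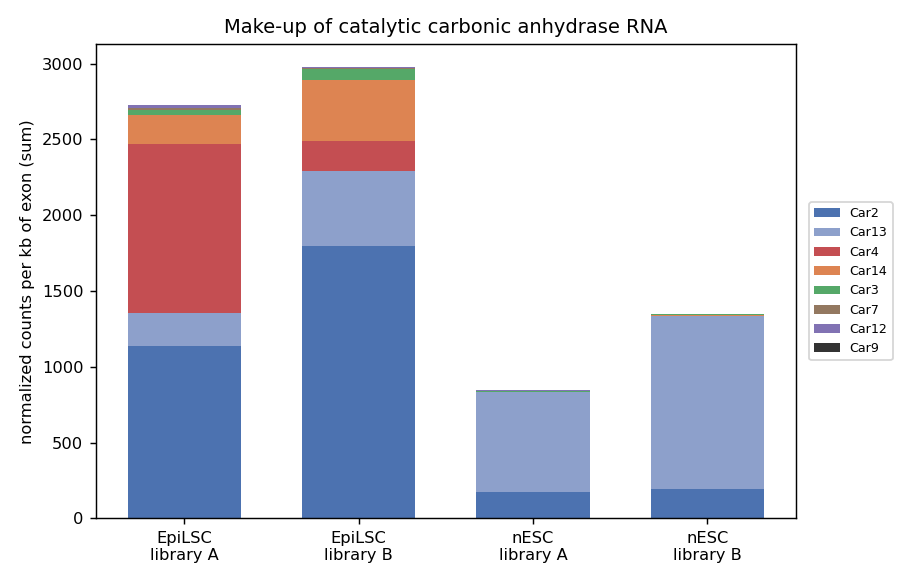
Summed normalized counts per kb of exon of the 8 catalytic members in each library, with 1 colour per gene. Bars of EpiLSC are mostly Car2 with Car4, Car13 and Car14, and bars of nESC are mostly Car13 with Car2 at 14.3% to 20.7%.

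The EpiLSC libraries lay further apart for Car4, Car12 and Car14 than for Car2. Car4, Car12 and Car11 were higher in EpiLSC library A by 5.71-fold, 2.24-fold and 2.70-fold. Car13, Car14, Car3 and Car2 were higher in EpiLSC library B by 2.32-fold, 2.07-fold, 2.06-fold and 1.58-fold. Gaps as large as those of the 6 genes other than Car4 were found in 28.5% to 61.9% of genes with an EpiLSC level of 50 or more. Among nESC, Car8 and Car13 were higher in library B by 1.84-fold and 1.73-fold, and the gap of Car2 was 1.11-fold. Whether these gaps follow the line, the depth or the culture was not tested.

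**Figure D4:**
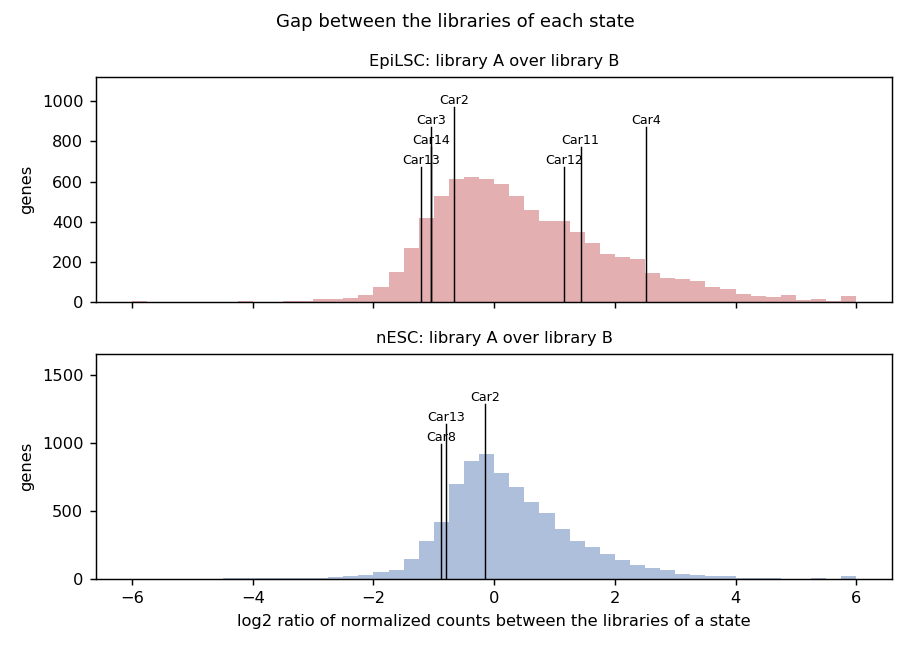
Number of genes by the log2 ratio of library A over library B within EpiLSC (top) and nESC (bottom), for tested genes with a level of 50 or more in that state and recovered reads; values beyond 6 are drawn in the end bins. Black lines mark the family genes that reach this level, from Car13 at -1.21 to Car4 at 2.51 in EpiLSC.

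Markers of other cell types in which these enzymes are known were read beside them. Of 14 erythroid markers, where Car2 is abundant, 6 had values, and they summed to 98.5 and 46.3 normalized counts in EpiLSC libraries A and B, against 11.8 and 4.57 in nESC libraries A and B. Of 3 tested erythroid markers 1 rose, the transcription factor gene Tal1, with 38.8 and 31.3 in EpiLSC libraries A and B against 2.35 and 1.14 in nESC libraries A and B, while the globin gene Hba-a1 was at 0 outside EpiLSC library A. Over all tested genes 7.67% were called higher and 6.23% lower. Muscle and adipose markers, tissues of Car3, summed to 90.4 and 6.80 in EpiLSC libraries A and B, against 20.4 and 7.99 in nESC libraries A and B. Of 2 tested 1 rose, Acta1, with 73.5 and 1.36 in EpiLSC libraries A and B against 1.57 and 1.14 in nESC libraries A and B. Its rise thus rested on EpiLSC library A alone. The other, Mb, had a log2 fold change of -1.61 (SE 2.03) in the authors' deposited table and did not pass. Glia and neuron markers, for Car2 and Car7, summed to 1652 and 767 in EpiLSC libraries A and B, against 1017 and 452 in nESC libraries A and B, and 2 of 7 tested rose. Of 4 tested kidney and gut markers, for Car4 and Car12, 1 rose and 1 fell. The riser was Lrp2, an endocytic receptor of kidney and embryonic epithelia, with a mean of 3452 and a log2 fold change of 4.03 (SE 0.67) in the authors' deposited table, whose reads could not be recovered. Cdx1, a gut homeobox gene, fell to 1.62 and 0 in EpiLSC libraries A and B, against 180 and 92.5 in nESC libraries A and B. No sum is given for this list, since it would leave out Lrp2. The erythroid, the muscle and adipose and the glia and neuron sums were higher in EpiLSC library A, as Car4 and Car12 were, than in EpiLSC library B. Mesoderm markers summed to 922 and 4032 in EpiLSC libraries A and B, against 616 and 910 in nESC libraries A and B, with Eomes at 744 and 3091 in EpiLSC libraries A and B. Of 6 tested mesoderm markers 2 rose (Eomes and Mixl1) and 1 fell (Kdr, -4.06, SE 0.99 in the authors' deposited table), and T was at 0.02 (SE 1.04) there. Of 8 tested primitive endoderm markers 2 rose (Dab2 and Foxa2) and 0 fell, and Foxa2 had 4.04 and 282 in EpiLSC libraries A and B against 0.784 and 2.28 in nESC libraries A and B. Apoe, by far the most abundant of this list with a mean of 5720, had a log2 fold change of -1.99 (SE 1.17) in the authors' deposited table without passing, and its reads could not be recovered, so no sum is given. Fibroblast markers summed to 602 and 352 in EpiLSC libraries A and B, against 134 and 68.5 in nESC libraries A and B, and 3 of 6 tested rose. The mesoderm sum and Foxa2 were higher in EpiLSC library B, like Car13, Car14, Car3 and Car2. The fibroblast sum was higher in EpiLSC library A, like Car4, Car11 and Car12. That sum was mostly Mmp2 (278 and 132 in EpiLSC libraries A and B) and Thy1 (209 and 73.5). Pdgfrb and Col1a1 were also higher in A. Dcn (27.5 and 77.5), Col1a2 (23.4 and 31.3), Col3a1, Postn and Lum were higher in B. In nESC the mesoderm sum and Foxa2 were likewise higher in library B and the fibroblast sum in library A. Whether such cell types had a part in the levels of the enzymes was not tested.

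Transporters and enzymes that handle the same ions were listed with earlier results of the table known. Of 10 tested bicarbonate transporters 1 rose and 2 fell, where 7.67% of all tested genes rose and 6.23% fell, and the median log2 fold change was 0.02, as over all tested genes. The sodium-bicarbonate cotransporter gene Slc4a4 had 339 and 373 normalized counts in EpiLSC libraries A and B, against 26.6 and 16.0 in nESC libraries A and B (4.05, SE 0.73 in the authors' deposited table). Slc4a5, another cotransporter of this kind, fell to 175 and 103 in EpiLSC libraries A and B, against 1462 and 1097 in nESC libraries A and B (-3.20, SE 0.67 in the authors' deposited table). Slc4a9 also fell (-4.93, SE 1.66 in the authors' deposited table), with 2 and 0 reads in EpiLSC libraries A and B against 46 and 18 in nESC libraries A and B. Of 9 sodium-proton exchanger genes and their adaptors 1 rose, Slc9a7 of the endomembranes, with 223 and 418 normalized counts in EpiLSC libraries A and B against 21.2 and 24.0 in nESC libraries A and B.

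Of 5 tested genes for transport of lactate and other monocarboxylates with protons 3 rose and 0 fell, where 7.67% of all tested genes rose, with a median of 2.71. At an adjusted p under 0.01 or against a 2-fold change 2 were called higher, without Slc16a3. Slc16a7 had 120 and 180 normalized counts in EpiLSC libraries A and B, against 2.35 and 4.57 in nESC libraries A and B. Emb, an accessory protein of these carriers, was higher in EpiLSC by 4.47 on the log2 scale (authors' deposited table, SE 0.73), and its reads could not be recovered at a mean of 8092. Slc16a3, the lactate exporter, had 3095 and 529 normalized counts in EpiLSC libraries A and B, against 379 and 176 in nESC libraries A and B, a gap between the EpiLSC libraries like that of Car4. Of 18 proton pump genes 1 rose and 0 fell: Atp4a of the gastric pump had 81 and 11 reads in EpiLSC libraries A and B, against 4 and 1 in nESC libraries A and B. Of 6 tested water and gas channels 0 rose and 1 fell, where 6.23% of all tested genes fell. This was Aqp3, at 19.4 and 61.2 normalized counts in EpiLSC libraries A and B, against 624 and 794 in nESC libraries A and B. Of 10 enzymes that use bicarbonate 0 rose and 1 fell, beside the same 6.23%. It was Pccb of propionyl-CoA carboxylase (-1.91, SE 0.64 in the authors' deposited table).

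HIF targets were set beside Car9 and Car12, both of which HIF can induce. Of 24 tested, 2 rose and 1 fell, and their median was 0.53. The called share of 12.5% was close to the 13.9% over all tested genes, and under each of 4 other call rules 1 rose. Egln3, an oxygen-sensing hydroxylase gene, had 238 and 401 normalized counts in EpiLSC libraries A and B, against 96.4 and 63.9 in nESC libraries A and B (adjusted p 0.0432 in the authors' deposited table). Lox had 35 and 19 reads in EpiLSC libraries A and B and 0 in both nESC libraries. Ak4 of mitochondrial adenylate kinase fell (-2.20, SE 0.66 in the authors' deposited table). Slc2a1, Pdk1, Vegfa and Bnip3 had log2 fold changes of 0.44, 0.34, 0.50 and 1.62 in the authors' deposited table, and none of the 4 passed.

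**Figure D5:**
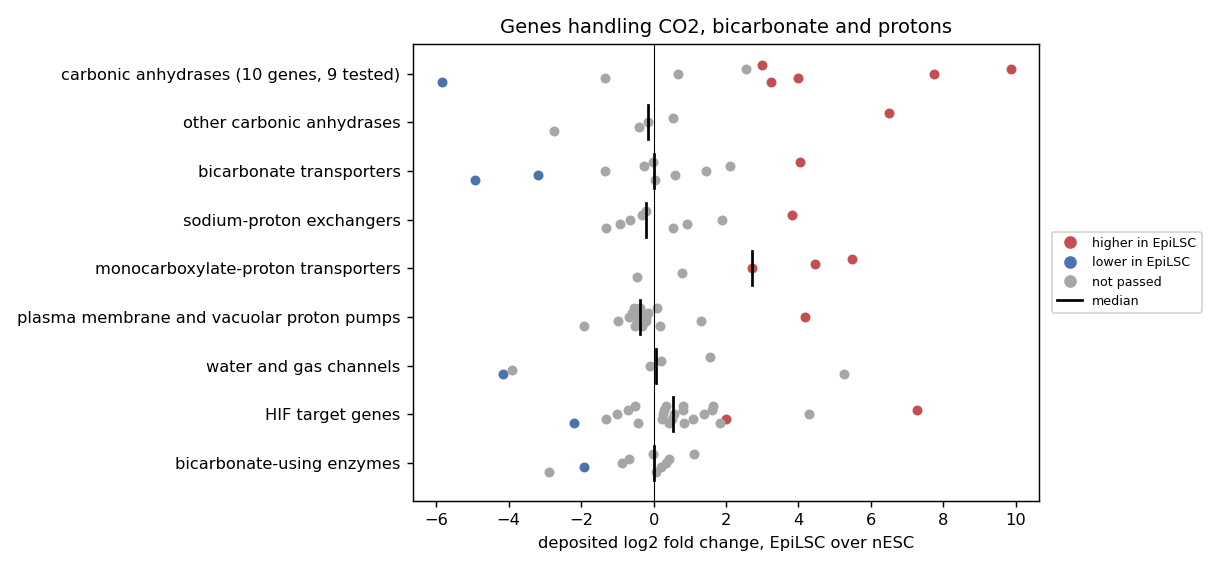
Log2 fold change of EpiLSC over nESC from the authors' deposited table for each tested gene of the family and of 8 gene lists; red genes were called higher, blue genes lower, and black bars are list medians. Monocarboxylate transporters have 3 of 5 genes called higher, and the medians of bicarbonate transporters (0.02) and proton pumps (-0.37) lie near 0.

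The 3 tested genes nearest to Car4 in log2 mean and log2 fold change, over these 2 states alone, were Fat3, Jakmip2 and Tagln at distances of 0.60, 1.10 and 1.19 log2 units. Fat3, a large cadherin, had 1638 and 1964 normalized counts in EpiLSC libraries A and B, against 0.784 and 4.57 in nESC libraries A and B. Jakmip2 had 943 and 852 in EpiLSC libraries A and B, against 1.57 and 2.28 in nESC libraries A and B. Tagln, an actin-binding protein of smooth muscle, had 1336 and 99.3 in EpiLSC libraries A and B, against 1.57 and 1.14 in nESC libraries A and B. Of these, Tagln alone was, like Car4, more than 5 times as high in EpiLSC library A as in library B.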

How the data were processed

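The authors' deposited comparison table gives, per the file headers, a mean of normalized counts (a signal: counts divided by size factors and averaged over libraries), log2 fold changes with standard errors, a Wald score, and p-values with Benjamini-Hochberg adjustment. Per the submitters' processing notes the tools were TopHat2, HTSeq and DESeq2 1.8.2 and the build mm9. Per the labels' protocols ribosomal RNA was depleted and the libraries were strand-specific. Which annotation and strand setting were used is not given in these sources. The deposited score and adjusted p were checked by recomputing them and differed by 5.86e-14 or less. The 3935 genes without an adjusted p, with means up to 3.74, were not counted as tested.

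Members, lists and rules were chosen with earlier results of these data known. All p-values are the authors'. They set the difference between the states against the spread within the states, over these 4 samples. R1 and E14TG2a were sampled 1 time each per state. Whether the authors' model held a term for the line is not known. Without such a term the spread within a state includes any difference between the lines. Adjusted p under 0.05 was a call. Named were the 10 members, other family genes, up to 2 called genes per list and direction, and the 3 genes nearest to Car4. Slc16a3, Sox2, the HIF targets that did not pass, the neighbouring genes and the markers of other cell types were named after their values were seen.

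Reads per library were computed with Python 3.11.15, NumPy 2.4.6 and numba 0.67.0: all 3530 means below 3 lay on sums of 4 steps (largest gap 1.55e-14), and whole-read combinations were searched for the 17220 genes with a mean of at most 2000. Of these 16804 were solved, 15914 by 1 combination and 890, Car2 and Car13 among them, by the only combination within 0.05 of the deposited log2 fold change. All 6206 genes of the first kind with both levels at 50 or more had ratios within 0.05 of the deposited value. The search was tested on simulated data. No test was made on these reads. Total reads per sample are unknown, so depth is given as size factors, and read intervals and the floor of 3 reads cover counting error only.

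Names came from GENCODE M21 (20167 of 20296 IDs matched without version), as did exon lengths, and promoters from RefSeq (GRCm38.p6). The alternatives were no filter, a mean of 100 or more, a null of a 2-fold change, adjusted p under 0.01, plain ratios, a pseudocount of 1 and leaving out each library.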

Additional observations from a re-analysis of the deposited data

How the results depend on the processing

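The counts of 5 members higher and 1 lower in EpiLSC stayed the same with no filter and at an adjusted p under 0.01. With testing limited to means of 100 or more 3 members were higher, because Car3 and Car12 have lower means and were not tested, and Car8 was still the 1 lower. Against a 2-fold change 4 were higher, without Car3. Over all genes, calls numbered 1255 higher and 1019 lower as deposited, 636 and 615 at a mean of 100 or more, and 628 and 502 against a 2-fold change. With a mean of 100 or more, with a 2-fold null and at an adjusted p under 0.01, Car10 and Atp4a were not called and 1 bicarbonate transporter was lower in place of 2; Ak4 lost its call with the 2-fold null, and Pccb and Slc16a3 with that null and at 0.01. Of 32 recomputed calls of single members, 31 kept their side of the threshold. The 2-fold null and the threshold of 0.01 can only remove calls, so Car7, Car11 and Car13 could not change side under them. Leaving out each library in turn kept the sign of the log2 ratio in 8 of 10 members; Car9 ranged from -1.86 to 1.27 and Car11 from -0.22 to 1.21. For the called members the ranges were 2.63 to 3.29 for Car2, 2.62 to 3.67 for Car3, 8.15 to 10.66 for Car4, -6.77 to -5.21 for Car8, 3.30 to 4.46 for Car12 and 6.79 to 9.92 for Car14. These ratios carry no test. No paired analysis was possible because the table has no column per sample and the recovered libraries carry no line or replicate number. The letters A and B stand for the rank of the size factor alone. Depth limits Car9 and Car7, with at most 6 and 35 reads in a library, and the nESC side of Car4 and Car14.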

Other observations

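On chromosome 3, Car13, Car1, Car3 and Car2 lie in a row in the RefSeq gene order, with Car3 and Car2 next to each other. Car14 is on the same chromosome but outside this row, between Aph1a and Anp32e. In the authors' deposited table Car3 (3.24, SE 0.83) and Car2 (2.99, SE 0.64) were called higher in EpiLSC. Car13 at the other end of the row (-1.33, SE 0.73) did not pass, and no entry named Car1 was found in that table. Of the 13 tested protein-coding genes next to a member that are not members themselves, 1 rose, Tpm2 beside Car9 (3.81, SE 0.91 in the authors' deposited table), and 0 fell; 1 in 13 is close to the 7.67% called higher among all tested genes. The genes that flank Car4, Znhit3 (0.35, SE 0.68) and Usp32 (-0.24, SE 0.67), and those that flank Car14, Aph1a (-0.33, SE 0.67) and Anp32e (0.63, SE 0.64), all missed the threshold there. Tox and Rab2a beside Car8 (1.70, SE 1.15, and 0.66, SE 0.71) also missed it.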
